A study of Mus musculus with 3 samples.

Results

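The interferon-gamma-inducible GTPases examined here are 10 mouse genes of 2 families: the guanylate-binding proteins Gbp2, Gbp3, Gbp4, Gbp6 and Gbp7, and the immunity-related GTPases Irgm1, Irgm2, Igtp, Iigp1 and Tgtp1. Probes were taken where the array's own gene name equals one of these symbols, which gave 14 of the 39429 probes that are not controls and at least 1 probe for each of the 10 genes. Of the 14 probes, 13 were well above background in the Cy3 dye on all 3 arrays or in the Cy5 dye on all 3 arrays, and were among the 27629 probes tested. All 10 genes kept a tested probe, among 17824 named genes tested. The tissue was the hippocampus of male mice killed at postnatal day 120. Dams of advanced age were 15 to 18 months old and control dams 3 months, and sires were 3 months old in both groups; the offspring of these dams are called older-mother and young-mother here. Each sample was RNA pooled in equal amounts from 3 males, and the labels name no strain, so individual animals cannot be seen. Each of the 3 two-colour Agilent arrays carried 1 older-mother pool in Cy3 and 1 young-mother pool in Cy5, in the same orientation each time, so that group and dye cannot be told apart.

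Guanylate-binding proteins and immunity-related GTPases are switched on in most cell types by interferon-gamma, through the receptor-bound kinases Jak1 and Jak2 and the transcription factor Irf1. They assemble on the vacuoles and membranes of intracellular microbes and help to break them open. Irgm1, Irgm2 and Igtp sit on the cell's own membranes and hold the effector GTPases, such as Iigp1 and Tgtp1, inactive there. In the brain, where resting levels are low, microglia, astrocytes, endothelial cells and neurons can all raise them when exposed to interferon-gamma.

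The start regions of these genes are shown first, because the families are known for 2 kinds of control sequence close to the transcript start: the interferon-stimulated response element (ISRE), searched on both strands as GAAA, any 2 bases, GAAA (reversed, TTTC, any 2 bases, TTTC), and the gamma-activated site (GAS), searched as TTCNNNGAA, which reads alike on both strands. Promoter sequences from RefSeq (GRCm38.p6) were matched by symbol for 7 of the 10 members; Gbp4, Gbp6 and Iigp1 had no entry. In the 250 bases before the start, 7 of 7 of these genes held the ISRE-type pattern, as did 3.46% of all 27025 genes in the table, and 4 of 7 held the GAS pattern, as did 8.13% of all genes. Counted by promoter, 7 of 8 held the ISRE-type pattern, against 2.98% of all 32851 promoters. Both patterns stood together in 4 of 7 (Gbp7, Irgm2, Igtp and Tgtp1), against 0.40% of all genes. The lines below give the 120 bases before the start, 5′ to 3′ along the gene, with matched letters in capitals, for these members and for Tgtp2, a close copy of Tgtp1 that is no member.
Gbp2 (chr3:142620543-142620662, + strand): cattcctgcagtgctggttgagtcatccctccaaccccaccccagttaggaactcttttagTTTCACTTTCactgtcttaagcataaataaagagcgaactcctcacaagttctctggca
Gbp3 (chr3:142559924-142560043, + strand): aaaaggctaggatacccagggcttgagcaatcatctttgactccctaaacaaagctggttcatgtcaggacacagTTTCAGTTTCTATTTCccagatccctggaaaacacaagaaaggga
Gbp7 (chr3:142530216-142530335, + strand): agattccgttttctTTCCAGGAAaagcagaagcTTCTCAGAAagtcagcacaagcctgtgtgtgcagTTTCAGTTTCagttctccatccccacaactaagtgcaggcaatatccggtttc
Irgm1 (chr11:48871421-48871540, - strand): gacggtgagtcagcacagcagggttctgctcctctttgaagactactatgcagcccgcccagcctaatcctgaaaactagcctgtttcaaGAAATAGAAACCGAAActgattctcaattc
Irgm2 (chr11:58214857-58214976, + strand): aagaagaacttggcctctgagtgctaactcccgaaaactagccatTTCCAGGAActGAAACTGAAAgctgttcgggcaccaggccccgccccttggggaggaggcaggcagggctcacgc
Igtp (chr11:58199436-58199555, + strand): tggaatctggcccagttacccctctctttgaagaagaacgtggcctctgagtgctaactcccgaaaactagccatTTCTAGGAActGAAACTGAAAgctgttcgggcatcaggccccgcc
Tgtp1 (chr11:48992247-48992366, - strand): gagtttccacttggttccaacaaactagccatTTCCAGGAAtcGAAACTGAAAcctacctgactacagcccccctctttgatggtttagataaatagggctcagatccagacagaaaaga
Tgtp2 (chr11:49064213-49064332, - strand): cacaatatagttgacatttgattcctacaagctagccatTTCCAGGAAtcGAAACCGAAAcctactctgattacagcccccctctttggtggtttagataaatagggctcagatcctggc
In the 5 printed sequences of immunity-related GTPases the ISRE-type pattern ran forward, and in Irgm2, Igtp, Tgtp1 and Tgtp2 a GAS match ended 2 bases before it. Other genes of that family differed: in Gm12250 the ISRE-type matches ran in reverse, and Ifi47 held neither pattern. In Gbp2, Gbp3 and Gbp7 the ISRE-type pattern ran in reverse. The matches in Gbp3 and in Irgm1 are overlapping pairs that share 4 bases. The longest unbroken run shared by the windows of Irgm2 and Igtp was 38 bases and reached from upstream into the first bases of the GAS match, and that shared by Tgtp1 and Tgtp2 was 27 bases and lay outside the matches. Gbp3 has a second listed start without either pattern. A match is a description of letters and no measurement of binding.

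**Figure D1:**
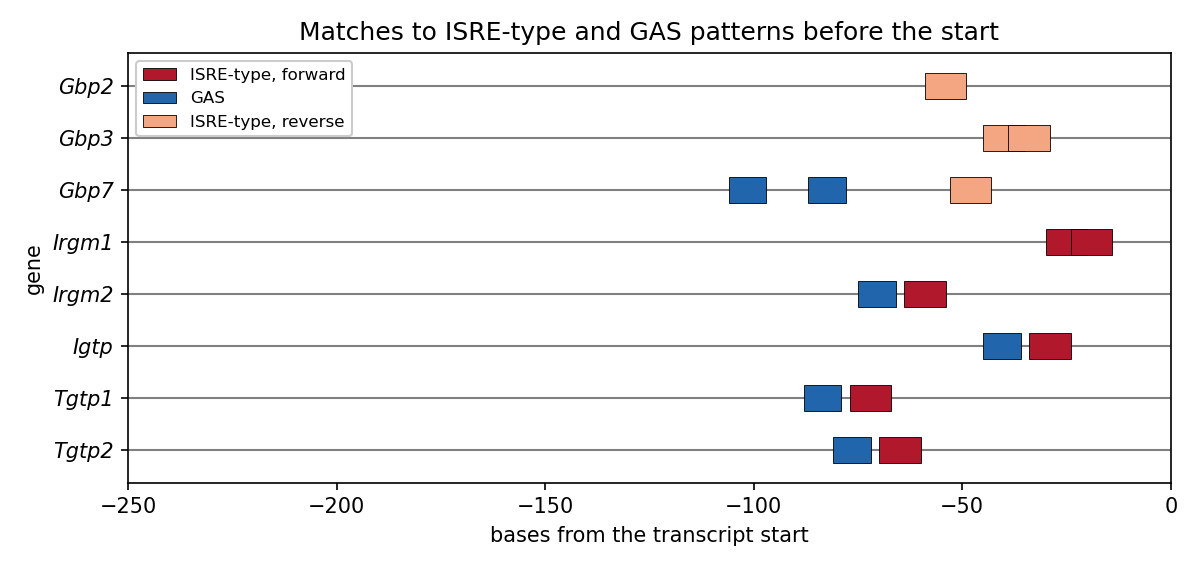
Position of pattern matches in the 250 bases before the transcript start (x axis, bases from the start) of 7 members and Tgtp2 (rows). Forward and reverse ISRE-type matches and GAS matches are drawn to scale; in Irgm2, Igtp, Tgtp1 and Tgtp2 the GAS match lies 2 bases before a forward ISRE-type match.

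In the older-mother pools 4 of the 10 genes were lower and 0 higher: Gbp4, Gbp3, Igtp and Irgm2 fell by 1.43, 0.81, 0.64 and 0.58 on the log2 scale. Calls are from limma with Benjamini-Hochberg adjustment over all tested probes, at an adjusted p under 0.05, two-sided, with the brightest tested probe of each gene. For comparison, 12.2% of all 17824 named genes were called lower and 7.34% higher by the same rule. Of the 13 tested member probes 4 were lower and 0 higher, beside 10.7% and 7.92% of all tested probes. In pooled bulk RNA, fewer cells of a type and less RNA per cell cannot be told apart. The median log2 ratio of older over young was -0.31 over the 10 members and -0.03 over all genes. On the 3 arrays the members' medians were -0.69, -0.11 and -0.18. In 6 of 10 members the ratio was below 0 on every array (36.3% of all genes), and in 1, Gbp6, above 0 on every array. Without replicate 3, 0 of the 10 were called by limma, and over the whole array 0 probes were lower and 29 higher, while 8421 had an unadjusted p under 0.05.

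**Figure D2:**
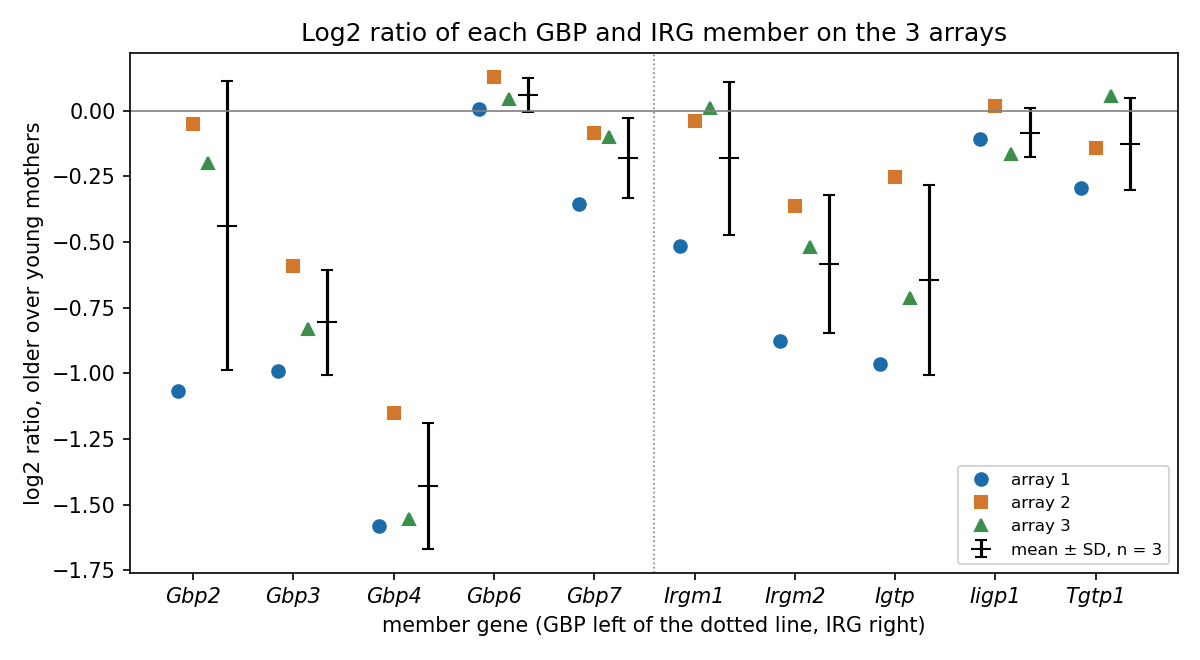
Log2 ratio of older over young mothers (y axis) for the brightest tested probe of each member (x axis) on arrays 1, 2 and 3, with the mean and SD (n = 3). Gbp3, Gbp4, Irgm2 and Igtp lie below 0 on all 3 arrays, and array 1 gave the lowest ratio for every member but Iigp1.

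Among the guanylate-binding proteins, Gbp4, which has been reported to bind the interferon regulatory factor Irf7, had the largest difference. Its background-subtracted signal was 149, 74.0 and 98.9 intensity units in the older-mother pools (Cy3) and 1459, 575.5 and 1050 units in the young-mother pools (Cy5); the dyes differ in brightness, so only the normalized ratios compare the groups. The log2 ratios were -1.58, -1.15 and -1.55 on the 3 arrays, a mean of -1.43 ± 0.24 (SD, n = 3), or 2.69-fold lower (limma adjusted p = 0.0117). All 3 older-mother pools lay below all 3 young-mother pools on the normalized scale (7.64 to 8.40 against 8.79 to 9.98, log2 signal). Of 17824 genes ranked from the lowest ratio, Gbp4 was number 3. The probe lies at chr5:105544852-105544911 in the coordinates of the array files, whose headers name the build mm9.

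Gbp3 was the second guanylate-binding protein to fall. Its log2 ratios were -0.99, -0.59 and -0.83, a mean of -0.81 ± 0.20 (SD, n = 3), or 1.75-fold lower (limma adjusted p = 0.0144). Its older-mother pools (8.06 to 8.42) lay below its young-mother pools (8.65 to 9.41) without overlap. Gbp4 and Gbp3 kept an adjusted p under 0.05 without replicate 1 (0.0290 and 0.0304) and without replicate 2 (0.00134 and 0.00702); without replicate 3 it was 0.0515 for both.

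Gbp2, which coats microbial vacuoles, did not pass, with log2 ratios of -1.07, -0.050 and -0.20 and a mean of -0.44 ± 0.55 (SD, n = 3, limma adjusted p = 0.165). Its difference rested on array 1, where the young-mother pool stood at 9.91 on the normalized log2 scale against 8.81 and 9.28 in the other young-mother pools, while the older-mother pools stood at 8.84, 8.76 and 9.08. The pools of the groups overlapped. Gbp7 was at -0.355, -0.083 and -0.099, a mean of -0.18 ± 0.15 (SD, n = 3, limma adjusted p = 0.118). A further Gbp7 probe was not well above background in either dye on any array and was not tested.

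Gbp6 did not pass, with log2 ratios of 0.0050, 0.13 and 0.045 and a mean of 0.060 ± 0.064 (SD, n = 3, limma adjusted p = 0.390); the limma 95% interval ran from -0.059 to 0.18. Its dimmer probe was not well above background in the older-mother pools on any array and had a ratio of -0.10 ± 0.12 (SD, n = 3). The estimate was 1.07-fold lower (limma adjusted p = 0.264), and its 95% interval, from -0.25 to 0.049, spanned no change. The array files assign this dimmer probe to the transcripts of both Gbp6 and its neighbour Gbp10, so it cannot separate them. The sign of Gbp6 differed between its probes.

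Among the immunity-related GTPases, Irgm2 and Igtp, both regulators on the cell's own membranes and neighbours on chromosome 11, fell. Igtp, measured by 10 spots of 1 probe (chr11:58020927-58020986), had log2 ratios of -0.96, -0.25 and -0.71, a mean of -0.64 ± 0.36 (SD, n = 3), or 1.56-fold lower (limma adjusted p = 0.03325). Irgm2 (chr11:58036093-58036152) had -0.875, -0.36 and -0.52, a mean of -0.58 ± 0.26 (SD, n = 3), or 1.499-fold lower (limma adjusted p = 0.0244). In both, all older-mother pools lay below all young-mother pools, from 8.46 to 8.65 against 8.71 to 9.61 for Igtp and from 7.80 to 7.98 against 8.16 to 8.85 for Irgm2. The call of Igtp was lost under more settings than that of Irgm2: its limma adjusted p was 0.0657 without replicate 1 and 0.0575 with the channels compared unpaired. Agilent's processed signals ended the calls of Igtp (0.0804) and Irgm2 (0.0604), although the ratios there were larger, at -0.75 and -0.84.

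Irgm1, the third regulator, did not pass. Its log2 ratios were -0.515, -0.039 and 0.010, a mean of -0.18 ± 0.29 (SD, n = 3, limma adjusted p = 0.276). Its other probe gave -0.59, -0.067 and -0.028, with a mean of -0.23 ± 0.31 (SD, n = 3), so both placed the difference on array 1. The 95% interval of the brighter probe ran from -0.46 to 0.10. Differences between the regulators were not tested.

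The effectors Iigp1 and Tgtp1 did not pass either. Iigp1, on chromosome 18, had log2 ratios of -0.11, 0.019 and -0.16, a mean of -0.084 ± 0.093 (SD, n = 3, limma adjusted p = 0.294). Its dimmer probe, not well above background in the older-mother pools, was at 0.041 ± 0.16 (SD, n = 3). Among the 14 member probes, the brighter Iigp1 probe shared at least 15 bases in a row, on either strand, with 4 probes of other genes, the Gbp3 probe and the brighter Gbp6 probe with 3 each, and the Irgm2 probe and the dimmer Iigp1 probe with 1 each; the others shared with 0. Of 2000 sampled probes, 39.4% shared as much with at least 1.

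The Tgtp1 probe was dim, with 15.5, 17.2 and 27.3 intensity units in the older-mother pools and 63.6, 53.3 and 51.0 in the young-mother pools. Its log2 ratios were -0.29, -0.14 and 0.057, a mean of -0.13 ± 0.18 (SD, n = 3, limma adjusted p = 0.264), and the sign turned to 0.0065 without background correction and to 0.31 under median centring. That scaling subtracts a single median per array and uses no loess curve. Under it the typical gene stood at -0.40, so values are also given with this shift taken off, which put Tgtp1 at 0.71. The Tgtp1 probe and both probes named Tgtp2 are assigned by the files to the transcripts of both genes, so the copies cannot be told apart. The brighter probe named Tgtp2 gave -0.996, -0.51 and -0.64, a mean of -0.71 ± 0.25 (SD, n = 3), or 1.64-fold lower (limma adjusted p = 0.0181); the other, not well above background in the older-mother pools, gave -0.064 ± 0.054 (SD, n = 3, limma adjusted p = 0.351). Probes that the files assign to the same pair of transcripts disagreed in size.

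For most members the young-mother pools varied more than the older-mother pools. Young-mother pools were always in Cy5 and older-mother pools in Cy3, so group and dye cannot be told apart in this spread. In 9 of 10 members the SD over the young-mother pools was the larger one, against 39.4% of all genes, with a median SD of 0.31 over young-mother and 0.09 over older-mother pools on the normalized log2 scale. Young-mother pool 1 was the highest young-mother pool for all 10 members, but the share of all genes with this order was not counted. Array 1 gave the lowest ratio for 9 of 10 members, against 36.5% of all genes. The median SD over all genes was 0.06 for the young-mother and 0.07 for the older-mother pools. In 4 of 10 members, the ones called, all older-mother pools lay below all young-mother pools, as they did for 26% of all genes; in 0 of 10 did they all lie above, as for 16.7% of all genes. Without replicate 1 the members' median ratio was -0.11.

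**Figure D3:**
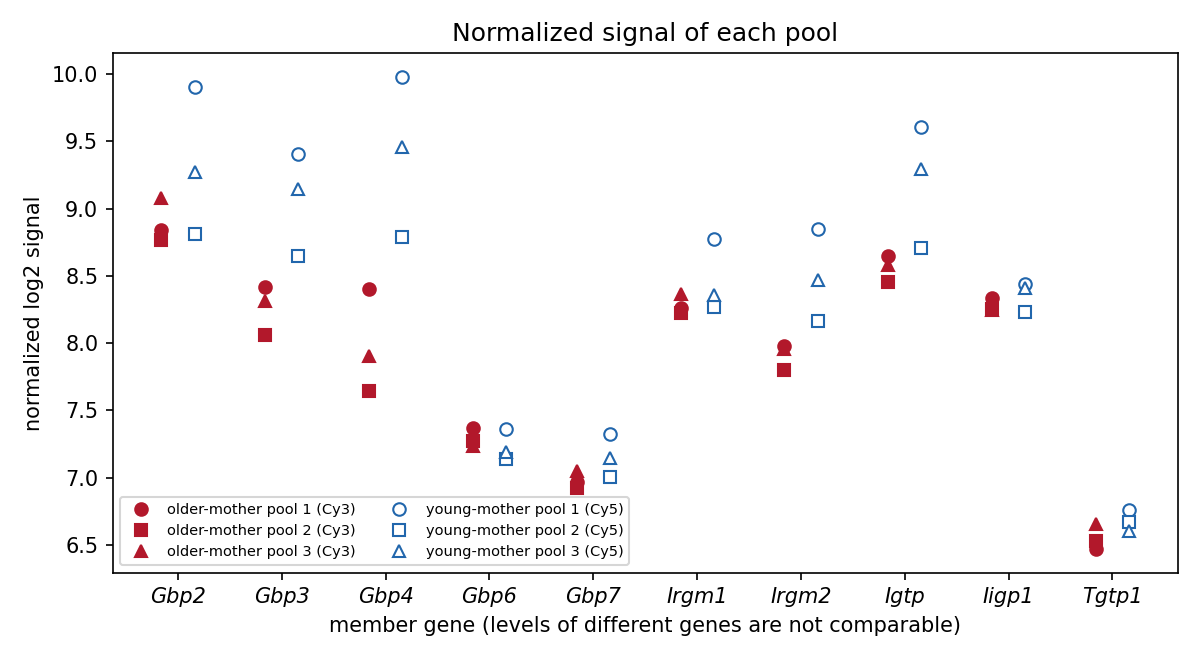
Normalized log2 signal (y axis) of the 3 older-mother pools (filled, Cy3) and the 3 young-mother pools (open, Cy5) for each member (x axis); shapes mark the array. Young-mother pool 1 is the highest young-mother pool for all 10 members (the share of all genes was not counted), and the groups do not overlap for Gbp3, Gbp4, Irgm2 and Igtp.

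Relatives in the same gene clusters were called or not as follows; differences between genes were not tested. On chromosome 5, which also holds Gbp4, the transcribed pseudogene Gbp11 fell, with log2 ratios of -0.82, -0.58 and -0.72 and a mean of -0.70 ± 0.12 (SD, n = 3, limma adjusted p = 0.0131), while Gbp9 was at -0.06 and Gbp10 at -0.13, neither past the threshold, and Gbp8 was not above background. On chromosome 3, Gbp5 did not pass, and its probes had opposite signs (0.05 and -0.10); both Gbp2b probes were not above background. Beyond the members, 12 of the 20 other genes of the GBP, IRG and GVIN families on the array were tested: 2 fell (Gbp11 and the probe named Tgtp2, which cannot be told apart from the member Tgtp1), 0 rose and 10 did not pass, with a median of -0.12. Among those that did not pass, Ifi47 was at -0.31, Gm4951 at -0.22, Gm12250 (Irgb10) at -0.15, Gvin1 at -0.11, Gm5431 at -0.11, Irgq at -0.05 and 9930111J21Rik1 at 0.10. The genes Irgc1, Iigp1b, Gm4841, F830016B08Rik, 9930111J21Rik2 and Gm17757 were not above background. Beside the counts of this family list and of the lists below, 12.2% of all genes were called lower and 7.34% higher.

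The genes of the inducing pathway were measured beside the members. Ifng, the cytokine gene, was not above background in either dye on any array. Of 15 tested signalling genes 3 fell, 2 rose and 10 did not pass, with a median of -0.07. Irf1, the transcription factor that acts on ISREs, fell by 0.31 on the log2 scale (log2 ratios -0.20, -0.29 and -0.45, SD 0.13, n = 3, limma adjusted p = 0.0296). Batf2 was at -0.45 ± 0.27 and Irf8 at -0.22 ± 0.07 (each SD, n = 3), and both fell.

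The receptor chains Ifngr1 (-0.07 ± 0.16) and Ifngr2 (-0.10 ± 0.06), the kinases Jak1 (0.10 ± 0.02) and Jak2 (0.13 ± 0.08) and the inhibitor Socs1 (-0.10 ± 0.06, each SD, n = 3) did not pass, and under median centring, which shifted all genes, Jak1 and Jak2 were at -0.56 and -0.43 (-0.16 and -0.023 with the shift taken off). Socs3, an inhibitor of cytokine signalling, rose by 0.75 ± 0.21, and Ciita, the transactivator of MHC class II genes, by 0.31 ± 0.16 (each SD, n = 3). Nlrc5, the transactivator of MHC class I genes, was at -0.34 ± 0.23 (SD, n = 3, limma adjusted p = 0.0528) and Irf9, an interferon regulatory factor, at 0.24 ± 0.16 (SD, n = 3, limma adjusted p = 0.0697); neither passed.

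Of 22 other tested genes that interferon-gamma induces, 10 fell, 0 rose and 12 did not pass, with a median of -0.23. The immunoproteasome subunits Psmb9 and Psmb8 were at -0.73 ± 0.19 and -0.53 ± 0.17 (each SD, n = 3). The class II chains H2-Ab1 and H2-Aa were at -1.01 ± 0.31 and -0.57 ± 0.23 (each SD, n = 3). The invariant chain Cd74 was at -1.19 ± 0.59 and the complement inhibitor Serping1 at -0.31 ± 0.05 (each SD, n = 3). All 6 fell, and they were named because they had the smallest p of the list. Of the same classes, the class II chain H2-Eb1 (0.077 ± 0.43) and the immunoproteasome subunit Psmb10 (-0.076 ± 0.034, each SD, n = 3) did not pass. Of 27 tested genes stimulated by type I interferon, 4 fell (Oasl2, Irf7, Ifi27 and Ifitm3), 0 rose and 23 did not pass, with a median of -0.11. For comparison, 12.2% of all genes were called lower and 7.34% higher. Oasl2, an oligoadenylate synthetase-like protein, was at -0.56 ± 0.18 and Irf7 at -0.32 ± 0.03 (each SD, n = 3); Irf7 was not well above background in the older-mother pools, and its sign turned under median centring (0.24, or 0.65 with the shift taken off).

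Of 23 tested partners of these GTPases (autophagy conjugation, inflammasome and prenylation genes), 2 fell, 2 rose and 19 did not pass, with a median of -0.0012. The ubiquitin-like conjugation gene Atg12, whose conjugate guides the GTPases, was at 0.25 ± 0.05 and rose, and under median centring it was at -0.38, or 0.021 with the shift taken off. Map1lc3a, an LC3 protein, fell by 0.33 ± 0.14 and Gsdmd, the pore-forming gasdermin, by 0.22 ± 0.03 (each SD, n = 3). Under median centring they were at -0.96 and -0.24, or -0.55 and 0.16 with the shift taken off. The sensor Nlrp3 rose by 0.18 ± 0.03 (SD, n = 3).

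**Figure D4:**
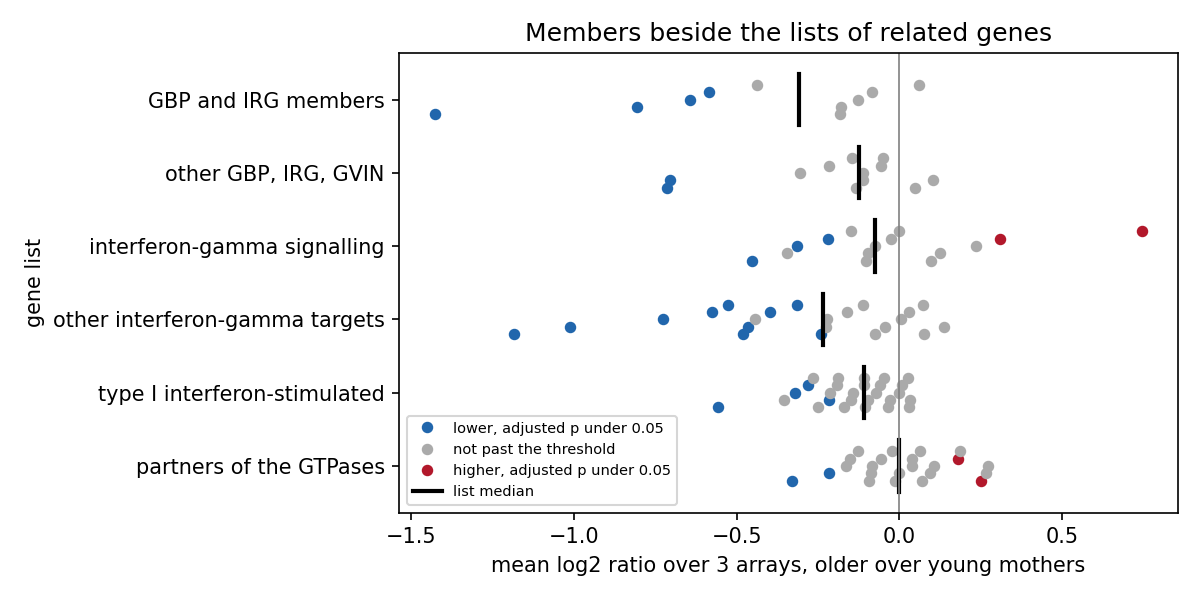
Mean log2 ratio over 3 arrays (x axis) of each tested gene in the members and in lists of related genes (y axis), coloured by limma call; black lines are list medians. The members' median of -0.31 and that of other interferon-gamma targets, -0.23, are the lowest of the 6 medians drawn.

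Cell type markers were read beside the tissue label, though the presence of neuron markers cannot tell hippocampus from other brain regions. All 9 hippocampal neuron markers were above background, with a summed normalized signal of 122200 to 128900 in older-mother and 120700 to 128000 in young-mother pools. Of these, 3 fell (Rbfox3, Nrgn and Neurod6), 2 rose (Syt1 and Neurod2) and 4 did not pass. The signs of Syt1 and Neurod2 turned under median centring (-0.55 and -0.49, or -0.14 and -0.089 with the shift taken off). Lymphocyte markers were sparse: 6 of 12 T and NK cell markers were tested, 1 of them fell (Nkg7), and Cd3g, Cd8a, Cd2, Ncr1 and Klrb1c were not above background. Their summed signal was 4780 to 5248 in older-mother and 5067 to 5623 in young-mother pools. Of 10 microglial markers 1 fell (Cx3cr1, the fractalkine receptor, at -0.46 ± 0.08, SD, n = 3), and their sum was 95500 to 108800 against 96600 to 105700. These sums add unlogged signals, so the brightest probes weigh most and a sum need not follow the level of a cell type. Average log2 intensity was 15.43 for Siglech and 15.16 for Itgam but 11.5 for Cx3cr1, and it was 15.39 for the choroid plexus marker Ttr. Of 10 endothelial markers 3 fell and 1 rose (Flt1, at -0.24 under median centring and 0.16 with the shift taken off), with sums of 18260 to 21440 against 18370 to 21220, and of 6 mural cell markers 3 fell, with sums of 4723 to 5725 against 6074 to 7174. Of 9 leptomeningeal fibroblast markers 6 fell (6388 to 10320 against 8646 to 10810). All 7 choroid plexus markers were below 0 on every array and 2 of them fell (Kcnj13 and Sostdc1), and their sum was 9063 to 67790 in older-mother and 77960 to 114300 in young-mother pools. Of 7 astrocyte markers 1 rose (Gfap, at -0.15 under median centring and 0.25 with the shift taken off). Of 5 tested border macrophage, 6 oligodendrocyte, 3 ependymal and 2 tested B cell markers, 0 passed in limma and 1 (Lyve1) had an unadjusted p under 0.05, and of 5 erythroid markers 1 fell, with sums of 47260 to 53540 against 53220 to 62330. On the 3 arrays the choroid plexus median was -0.90, -2.13 and -0.41, and the leptomeningeal fibroblast median -0.39, -0.58 and -0.26. The endothelial median was -0.22, -0.20 and -0.004, and the mural cell median -0.33, -0.22 and 0.04. The part of these cells in the members' differences was not tested.

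By likeness, measured as the Euclidean distance between log2 ratios over the 3 arrays among 17814 other genes, the nearest to the members' median were Frrs1l (distance 0.047), Ifi47 (0.060), Psg27 (0.103), Gpbar1 (0.132) and 1810013A23Rik (0.133). Ifi47 is itself an immunity-related GTPase. The nearest to Gbp4 were Hes5 (0.709), a target of Notch, H2-Ab1 (0.830) and Cd74 (0.876), of MHC class II presentation, Adamts4 (1.08), a proteoglycan-cutting protease, and Tuba1c (1.13), an alpha-tubulin. With 3 arrays such distances describe only these ratios.

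The deposited values, which are log2 ratios of Cy3 over Cy5 for each spot, gave the same 4 calls. For Gbp4 they were -1.58, -1.16 and -1.54, for Gbp3 -0.98, -0.59 and -0.86, for Igtp -0.94, -0.26 and -0.70 and for Irgm2 -0.86, -0.39 and -0.54. Over the 10 members the deposited and recomputed ratios differed by at most 0.08 on an array and 0.02 in the mean. Under median centring 5995 probes were higher and 17004 lower, against 2189 and 2946; 7 members were then lower and 1, Tgtp1, higher. With the shift taken off, Gbp4, Gbp3, Igtp and Irgm2 were at -1.39, -0.77, -0.64 and -0.46. Gbp2, Irgm1 and Iigp1, also among the 7 lower, were then at -0.47, -0.095 and 0.014. Gbp7 was at 0.36, with its sign turned, and Gbp6 at 0.51.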

How the data were processed

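Total RNA pools from the hippocampus were measured on 3 two-colour arrays with 44397 spots each. Spots were read with Agilent Feature Extraction. Mean and median spot signals and background medians are raw intensity values as deposited, per the file headers, and processed signals are intensity values corrected for background and dye. The log ratio in the deposited scanner files is log10 of processed Cy5 over Cy3, per the file headers. The authors' deposited value table holds log2 ratios; normexp with offset 50 and loess of the median signals gave its values within 5e-10.

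Here, mean signals were corrected by normexp (offset 50) and loess (span 0.3), with weight 0 for control and outlier spots, in limma 3.58.1 and R 4.3.3, and spots of a probe were averaged. Probes well above background in 1 dye on all 3 arrays were kept: 27629 of 39429. In 1448 of them Cy3 was not above background on any array. An intercept was tested with lmFit and eBayes (two-sided, 2 residual and 3.42 prior degrees of freedom), with Benjamini-Hochberg adjustment over all kept probes. Normalized signals of single pools are per channel after loess and Aquantile normalization, and are open to dye bias. Median Cy3 signals over background were 58.0 to 62.3 units and Cy5 signals 153 to 165; 0 spots were saturated, and the number of arrays limits precision. All arrays were on 1 slide and scan by the labels' and headers' records. Whether pools share litters is not stated, so p-values measure the spread between these pools.

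Members and lists were chosen with earlier results of these data known. Named were all members, all family genes on the array, 8 signalling genes whatever their values (1 is not reported here), and up to 6 further genes of each list with the smallest p; list counts cover every tested gene. Steps were tested on simulated data. The other settings tried are described with their effects in the closing part.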

Additional observations from a re-analysis of the deposited data

How the results depend on the processing

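The 4 members called lower were 2 with Agilent's processed signals and 7 under median centring, where 1 member was higher, and from 0 to 4 when each replicate was left out. The members' median was -0.68 under median centring, or -0.28 relative to all genes, whose median that scaling moved to -0.40, and ran from -0.44 to -0.11 without each replicate. Probes lower numbered 2946, against 1451 with processed signals, 5209 at an adjusted p under 0.10, 17004 under median centring and 0 to 1905 without each replicate; probes higher numbered 2189, against 1169, 3862, 5995 and 29 to 1458. Tgtp1 turned to 0.0065 without background correction and 0.31 under median centring, and Gbp6 to -0.020 as the mean of its probes. With the channels compared as 3 against 3 without the pairing of pools on an array, 3 members were lower. No background correction, an offset of 16, the deposited values, scaling between arrays, no filter, the stricter filter, trend and robust settings, a mean over probes, RefSeq symbols and, added after seeing the data, leaving out probes dim in Cy3 gave 3 or 4 members lower. The causes were not tested. No dye swap was made, and signal over background limits Tgtp1, Gbp7, both probes of Gbp6 and the dimmer probes of Irgm1 and Iigp1.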

Other observations

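Of 387 tested genes other than the members with the ISRE-type pattern (GAAA, any 2 bases, GAAA, on either strand) in the 250 bases before a start, 50 were lower (12.9%) and 23 higher (5.94%) in the older-mother pools, beside 12.2% and 7.34% of all genes. Of 49 such genes with both that pattern and the GAS pattern, 3 were lower and 4 higher. Of the type I interferon-stimulated genes with a promoter entry, 9 of 21 held the ISRE-type pattern, of the other interferon-gamma targets 2 of 17, of the partners of the GTPases 0 of 18, of the signalling genes 1 of 11 and of the other family genes 4 of 9, beside 3.46% of all genes. Both patterns stood in 3 of the 9 other family genes.

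The probes of Gbp5, a guanylate-binding protein that is no member, gave -0.43, 0.17 and -0.03 and 0.16, 0.04 and -0.06 on the 3 arrays, so the lower ratio of array 1 seen in the members appeared with only 1 of them.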
